A study of Mus musculus with 2 samples.

Results

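The 9 NRF2 antioxidant genes Nfe2l2, Keap1, Nqo1, Gclc, Gclm, Gsr, Txnrd1, Srxn1 and Prdx1 were read by 13 probes, of 56605 non-control probes on the array, and make up 9 of the 23786 genes that could be named. Probes of the members were taken by name, as every non-control probe whose transcript accession belongs to a listed gene, without use of their values. The list of genes was chosen with earlier results of these data known. The 2 arrays held RNA of bone marrow-derived dendritic cells (BMDCs) from C57BL/6J mice, 1 with the genotype label Egr1-deficient and 1 with WT, both labelled male. The label does not say which allele made the deficient mice deficient. Marrow of the femurs was cultured in 10 ng/ml of GM-CSF, the growth factor that drives marrow precursors towards dendritic and macrophage-like cells, and both cultures were collected on day 6 with no other agent named in the labels. Such cultures are mixtures, and in bulk RNA fewer cells of a type and less RNA per cell cannot be told apart. There was 1 array per group, so no difference has a replicate check and no p-value was computed.

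NRF2, the protein of Nfe2l2, is a basic leucine zipper transcription factor. In resting cells the adaptor KEAP1 holds it and hands it to a cullin ubiquitin ligase, so that it is degraded. Oxidants and electrophiles, the endogenous metabolite itaconate of activated myeloid cells among them, modify cysteines of KEAP1, and NRF2 then accumulates, pairs with small MAF proteins and binds antioxidant response elements. Its targets make glutathione, reduce thioredoxin and repair peroxiredoxins, and in myeloid cells it is known to dampen inflammatory cytokine genes. Much of the control of NRF2 acts on its protein, which an RNA array does not read.

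The core of the antioxidant response element was searched for in the RefSeq promoter windows (GRCm38.p6, 250 bases before to 50 after a transcript start), as TGACNNNGC and as its variant TGAGNNNGC on both strands. Windows were matched by symbol for 7 of the 9 genes, 9 windows in all because Txnrd1 has 3 starts. Gclc and Gsr had no entry. A match to either motif lay in 5 of the 9 windows, those of Nfe2l2, Gclm, Srxn1 and Prdx1 and 1 of Txnrd1, and in 27.8% of 32851 windows of this length. TGACNNNGC alone lay in 12.4% of them. The windows of Srxn1 and Prdx1, each with more than 1 match, and of Nqo1, with none, are shown because these genes are textbook NRF2 targets whose RNA is described further on. Capitals mark the matches. The windows are chr2:152105274-152105573 on the plus strand for Srxn1, chr4:116685349-116685648 on the plus strand for Prdx1 and chr8:107403156-107403455 on the minus strand for Nqo1.
Srxn1: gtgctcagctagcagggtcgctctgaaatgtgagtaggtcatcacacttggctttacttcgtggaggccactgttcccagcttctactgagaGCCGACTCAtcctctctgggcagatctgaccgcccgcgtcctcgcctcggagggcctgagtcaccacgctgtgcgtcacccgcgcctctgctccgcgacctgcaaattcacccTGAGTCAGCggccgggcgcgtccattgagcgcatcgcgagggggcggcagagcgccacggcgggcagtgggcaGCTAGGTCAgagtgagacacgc
Prdx1: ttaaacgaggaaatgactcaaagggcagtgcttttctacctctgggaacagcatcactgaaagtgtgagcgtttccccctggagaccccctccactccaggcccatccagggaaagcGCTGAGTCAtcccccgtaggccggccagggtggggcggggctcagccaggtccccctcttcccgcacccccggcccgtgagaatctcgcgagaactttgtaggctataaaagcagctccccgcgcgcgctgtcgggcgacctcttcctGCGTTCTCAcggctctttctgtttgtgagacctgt
Nqo1: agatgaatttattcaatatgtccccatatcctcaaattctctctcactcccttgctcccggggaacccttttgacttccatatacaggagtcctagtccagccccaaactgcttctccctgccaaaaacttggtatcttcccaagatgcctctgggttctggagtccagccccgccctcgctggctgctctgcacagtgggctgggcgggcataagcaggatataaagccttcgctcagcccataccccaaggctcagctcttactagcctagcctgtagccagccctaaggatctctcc
In Srxn1 the match TGAGTCAGC lay 45 to 37 bases before the start on the strand shown, and TGAGTCGGC lay 158 to 150 bases before it on the other strand. In Prdx1 the match TGACTCAGC lay 133 to 125 bases before the start on the other strand. Each of the 2 genes had 1 further match after its start, 28 to 36 bases in Srxn1 and 15 to 23 in Prdx1. TGAGTCAGC and TGACTCAGC both contain the binding sequence of AP-1 factors, so these letters do not tell the families apart. In Nfe2l2 itself TGACTCCGC lay 240 to 232 bases before the start, in Gclm TGACGGTGC lay 134 to 126 bases before it on the other strand, and in Txnrd1 TGACAAAGC lay 92 to 84 bases before its second start, also on the other strand. A match is a description of the letters and no match says only that they are not in this window.

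The libraries were compared with their labels before the results. Egr1, the targeted gene, read 1212 in the library labelled EGR1-deficient and 379.7 in WT, so it goes against the label unless its 1 probe lies outside the deleted part, a position not given here. Xist read 4559 and 3425, and no probe of Ddx3y, Kdm5d or Uty was well above background, which goes against the male label of both. Of Eif2s3y, 1 probe was above background (27.1 and 25.6) and 1 was not. Every direction that follows rests on the labels as given. Well above background were 59.8% of 59305 spots in the library labelled EGR1-deficient and 55.2% in WT. Both arrays were on 1 slide and in 1 scan, per the file headers. The dendritic cell markers fixed for this work were above background on both arrays in 7 of 7 genes, with a median difference of −0.05 log2 units. They did not all go the same way, with 2 above 0 and 5 below. Flt3 (0.50) and Itgax (0.37, other probes 0.18 and 0.21) were above, and Cd86 (−0.41, other probes −0.39 and −0.28) was the furthest below. All 9 macrophage markers were detected too and were lower in the library labelled EGR1-deficient (median −0.39). Their summed signal was 28784 against 36280, and of all genes 57.4% were below 0. This sum and those that follow add processed signals before scaling, so they are not on the scale of the medians and the brightest probes weigh most. Granulocyte markers were detected in 8 of 8 genes (median −0.00395, summed signal 62444 against 55779), 4 of them above 0 and 4 below. Most of that sum is S100a9, at 38540 and 32811. Of 5 stromal markers, 2 were detected on both arrays, Col1a2 (1.05) and Pdgfrb (0.99), with a summed signal of 134 against 62.8. Col1a1, Col3a1 and Dcn were detected in the library labelled EGR1-deficient alone. Its lowest signal well above background was also lower (13.3 against 16.3 in WT). Dcn was at least 1.83-fold brighter there and Col1a1 at least 1.31-fold, while Col3a1 (16.1) lay below the WT limit and got no fold. All 5 were dim, the brightest being Col1a2 at 74.4 and 34.2. The stromal median of 1.02 ran from 0.39 with normexp background correction to 1.17 with the authors' deposited table. Of 5 B cell markers 4 were above background on both arrays, 2 of them above 0 and 2 below. So were 2 of 5 T and NK cell markers, 1 on each side. Pax5 (0.47) and Ms4a1 (0.45) were above 0, and Cd79a (−0.58) and Cd79b (−1.09) below. Cd79b, at 20.9 and 42.4, was the 1 B cell marker past 2-fold, where 1.71% of all genes were. Klrb1c differed by −0.65 and Cd3e by 0.18 (another probe −0.08). Cd3g read 39.1 in the library labelled EGR1-deficient, at least 2.29-fold brighter than in WT, where it was not well above background (4.56). The part of these cells in the results on the NRF2 genes was not tested.

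All 13 probes of the NRF2 antioxidant genes were well above background on both arrays, against 51.7% of all probes, and none was 2-fold apart. The comparison asks how far BMDCs labelled EGR1-deficient differ from WT in this pathway. Over probes above background on both arrays, 1.88% were 2-fold or more apart (0.872% higher and 1.01% lower in the library labelled EGR1-deficient), so a count of 0 among 13 probes is near what the background share gives. At 1.5-fold the count was also 0, against 8.56% of all such probes. Differences are log2 processed signal minus the array's 75th percentile, EGR1-deficient minus WT. By the scanner program's own error of each signal, a difference had an error of about 0.20 log2 units, and 4 of the 13 probes differed from 0 by more than that error and 0 by more than 2 such errors. The program's error was nearly proportional to the signal, so the error of a difference ran only from 0.204 to 0.226 over the 13 probes. These counts are thus close to fixed cut-offs. Probes printed 10 times on each array gave a smaller figure, a median SD of 0.09 for a difference, which 12 of the 13 probes exceeded, 4 of them at more than 2 times that SD. Neither error holds the variation between cultures or mice.

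**Figure D1:**
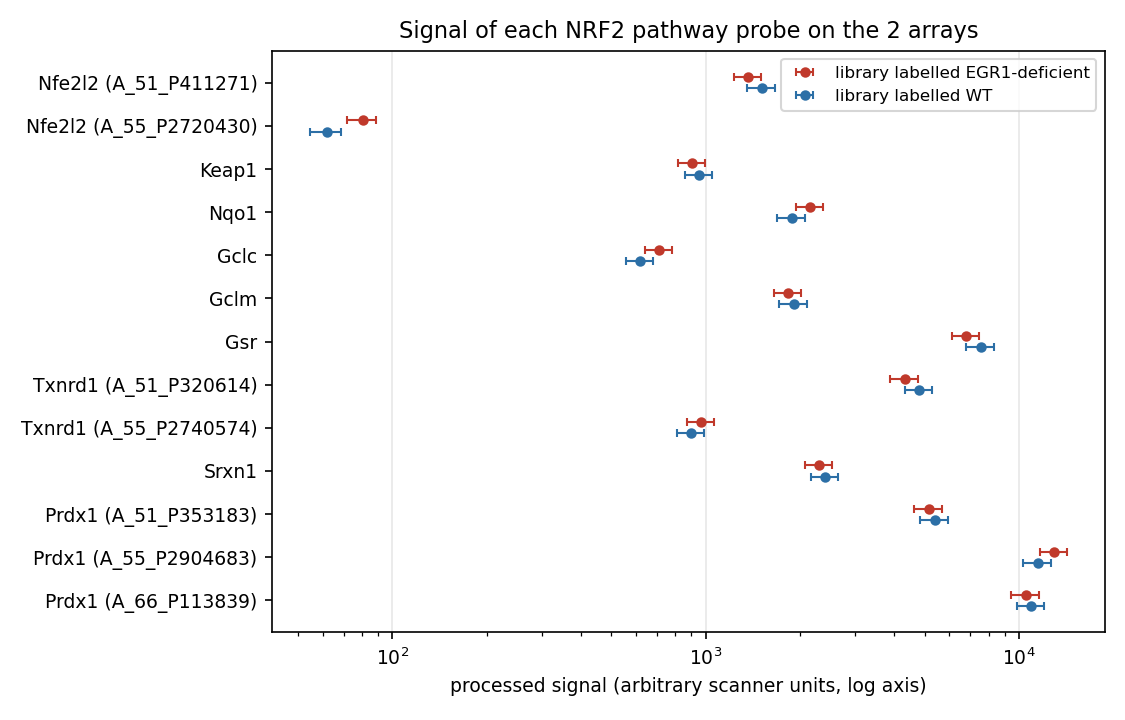
Processed signal (scanner units, log axis) of each of the 13 probes in the library labelled EGR1-deficient (red) and for WT (blue). Points are single spots and bars the scanner program's error of that spot. Each pair of points lies close together, from 80.5 and 61.7 for the dim Nfe2l2 probe A_55_P2720430 to 12933 and 11481 for a Prdx1 probe, and signals of different probes are not comparable levels.

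The regulator and its inhibitor came first. Nfe2l2 (chromosome 2) was read by its coding transcript's probe at 1369 in the library labelled EGR1-deficient and 1509 in WT, a difference of −0.21 or 1.15-fold lower. Its second probe, designed to the accession NR_132727 that RefSeq classes as non-coding, read 80.5 and 61.7, a difference of 0.32 or 1.25-fold higher. The 2 probes of Nfe2l2 thus lay on opposite sides of 0 and 0.52 apart, the widest gap among the 3 member genes with several probes. Across 4594 genes with several probes above background, the median SD between probes was 0.18, and it was 0.37 for Nfe2l2. Keap1 (chromosome 9), which encodes the adaptor that holds NRF2, read 905 and 956 (−0.14). The difference of Nfe2l2 minus that of Keap1, a value that no scaling of a whole array changes, was −0.06 with an error of 0.29 from the scanner's errors.

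Nqo1 and the glutathione enzymes went both ways by small amounts. Nqo1 (chromosome 8) encodes a quinone reductase widely used as a readout of NRF2 activity. It read 2158 in the library labelled EGR1-deficient and 1881 in WT, a difference of 0.13 with a scanner error of 0.20. Glutamate-cysteine ligase, the first and rate-limiting enzyme of glutathione synthesis, has a catalytic subunit, Gclc, and a modifier subunit, Gclm. Gclc (chromosome 9) read 711 and 619 (0.13), and Gclm (chromosome 3) read 1838 and 1912 (−0.12). The subunits lay 0.26 apart on any scaling that multiplies a whole array, within the scanner error of 0.29 for such a gap and beyond the 0.12 that repeated spots give. Gsr (chromosome 8) encodes glutathione reductase, which recycles oxidised glutathione with NADPH. It read 6781 and 7557, at −0.22 the member gene furthest from 0, or 1.17-fold lower in the library labelled EGR1-deficient.

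In the thioredoxin branch no probe lay further from 0 than Gsr. Txnrd1 (chromosome 10) encodes cytosolic thioredoxin reductase, a selenoprotein that uses NADPH to reduce thioredoxin. Its brighter probe read 4321 in the library labelled EGR1-deficient and 4808 in WT (−0.22), and its other probe read 967 and 899 (0.04). Both probes carry the same accession, so the gap of 0.26 between them is wider than the difference of either probe on the 75th percentile scaling. Srxn1 (chromosome 2) encodes sulfiredoxin, which repairs peroxiredoxins that peroxide has overoxidised, and read 2301 and 2411 (−0.13). Prdx1 (chromosome 4) encodes the abundant cytosolic peroxiredoxin that this repair serves. Its 3 probes read 12933 and 11481 (0.11), 10505 and 10937 (−0.12), and 5156 and 5386 (−0.13). With its probes on both sides of 0, Prdx1 has no direction in these data, and its gene value of 0.11 is that of its brightest probe.

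**Figure D2:**
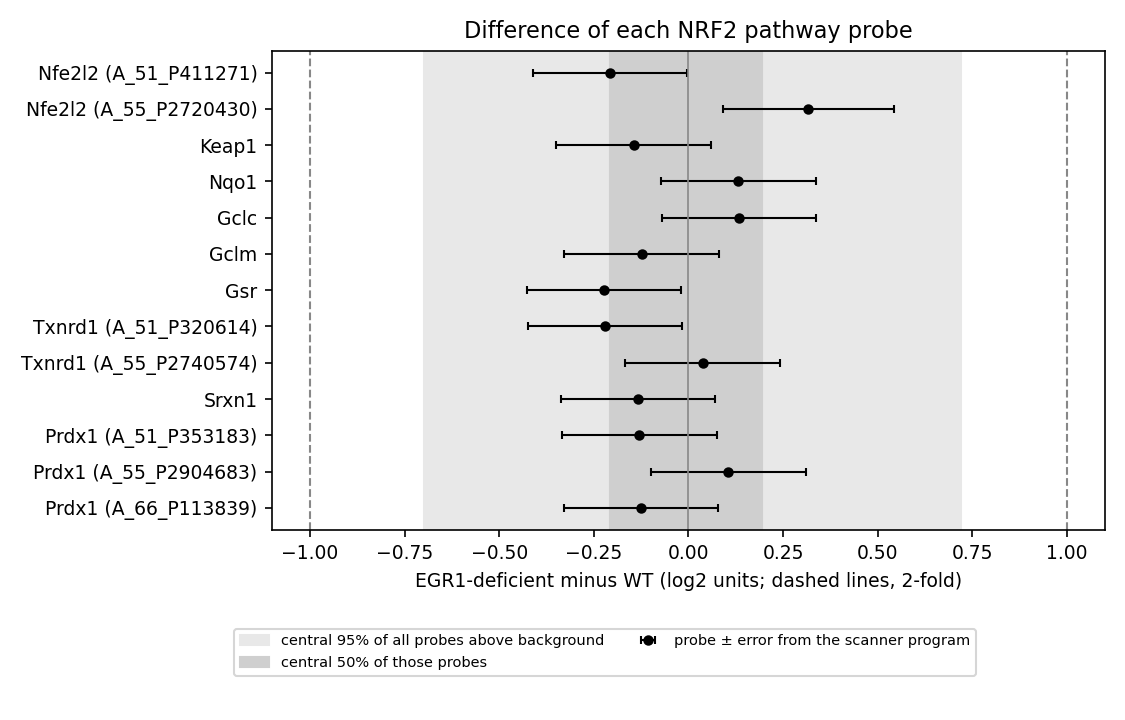
Difference between the arrays (EGR1-deficient minus WT, log2 units) for each of the 13 probes, with the scanner program's error as bars. The shaded bands hold the central 95% and 50% of all probes above background on both arrays, and the dashed lines mark 2-fold. All 13 probes lie inside the 95% band, which runs from −0.70 to 0.72, with 8 below 0 and 5 above.

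Counted gene by gene, with the brightest probe of each, 6 of the 9 genes (66.7%) were below 0 and 3 above, and the median was −0.13. Over all 13735 named genes above background on both arrays, 57.4% were below 0 and the median was −0.05. The brighter genes lay lower in the library labelled EGR1-deficient: the median was 0.02 over the dimmest 3433 genes and −0.10 over the brightest 3434, which hold all 9 NRF2 genes. Over the 2961 genes in the signal range of the members the median was −0.11. The members' median minus that value was −0.02. Of all genes, 55.9% were no further from 0 than Gsr.

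**Figure D3:**
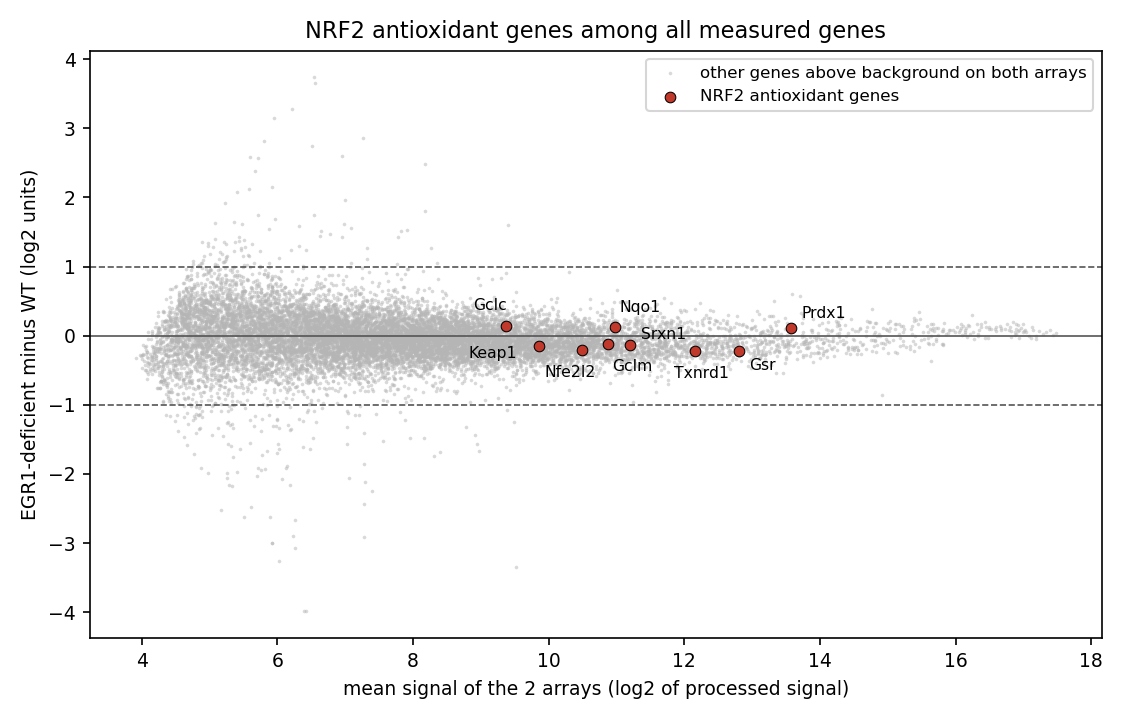
Difference between the arrays (vertical axis, log2 units) against the mean signal (horizontal axis, log2 of the processed signal) for 13735 genes above background on both arrays, 1 point a gene. The 9 NRF2 antioxidant genes (red) lie between −0.22 and 0.13, inside the dashed 2-fold lines and within the cloud of genes of like signal.

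The partners, relatives and inhibitors of NRF2 lay on both sides of 0, and Maff and Btrc, the furthest from 0, were dim. Of 16 genes, 14 were above background on both arrays, 8 of them above 0 and 6 below, with a median of 0.03 that turned to −0.11 when each array was scaled on its median, and 0 were 2-fold apart, where 1.71% of all genes were. Maff, a small MAF protein that pairs with NRF2 and lacks an activation domain, read 48.0 and 25.2 (0.86). It was the 1 gene of the list past 1.5-fold, where 7.7% of all genes were. The other small MAF genes were near 0, Mafg at 0.03 and Mafk at −0.15. Bach1, a repressor that competes with NRF2 for the same elements and is released by haem, read 262 and 205 (0.29). Its relative Bach2 was above background in 1 of the 2 libraries, the one labelled EGR1-deficient, at a level at least 1.20-fold that of WT.

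The cullin gene Cul3, part of the ligase that removes NRF2, read 336 and 373 (−0.22) and its RING partner Rbx1 2605 and 3088 (−0.31, another probe −0.25). The autophagy adaptor Sqstm1, which sequesters KEAP1, read 23008 and 22668 (−0.05), and Dpp3, another protein that competes for KEAP1, differed by −0.14. A KEAP1-independent route runs through the kinase Gsk3b and the adaptor Btrc. Gsk3b read 247 and 181 (0.38, other probes −0.28 and 0.22), so its probes disagree in sign and it has no direction, and Btrc read 40.4 and 28.0 (0.46). The coactivator Crebbp differed by 0.02 (another probe −0.17). Among relatives, Nfe2l1 differed by −0.25 (another probe 0.21), Nfe2 by 0.05 and Nfe2l3 by 0.06 (another probe 0.45). Palb2, which can bind KEAP1, was not well above background in either library.

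Most other genes often cited as NRF2 targets lay a little below 0, as did most genes of the array. Of 31 genes, 29 were above background on both arrays, 25 were below 0 (86.2%, against 57.4% of all genes) and 4 above. Their median was −0.14, against −0.05 over all genes and −0.11 over genes in the members' signal range of 663 to 12186. The list also holds genes outside that range, Ephx1, Abcc4 and Gpx2 among them, so the −0.11 is not a match for all of it. By their brightest probe 0 were past 1.5-fold, where 7.7% of all genes were. Nqo2, a relative of Nqo1, differed by 0.0099 in its brighter probe and by −1.28 in its other probe, so its probes disagree. The furthest were Mgst1, a microsomal glutathione transferase, at 1274 and 1717 (−0.50, another probe −0.39), the epoxide hydrolase Ephx1 (−0.44), the efflux pump Abcc4 (−0.42) and the glutathione peroxidase Gpx2 (−0.32). Hmox1, the haem oxygenase gene under joint control of NRF2 and BACH1, read 11503 and 12105 (−0.14), and Slc7a11, the cystine transporter that feeds glutathione synthesis, 409 and 414 (−0.08, another probe −0.29). Gsta4 and Aldh3a1 were not well above background in either library. Nqo2, Hmox1, Slc7a11, Gsta4 and Aldh3a1 were chosen after their values were seen.

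Glutathione genes outside the members lay on both sides of 0, with Gpx3 the furthest of the list. Of 27 genes, 21 were above background on both arrays, 16 below 0 and 5 above, with a median of −0.07 that turned to 0.02 after loess and 0.04 with the authors' deposited table, and 2 (Gpx3 and Chac1) were past 1.5-fold, both lower. That is near the 7.7% of all genes past 1.5-fold, and 57.4% of all genes were below 0. Gpx3, which encodes the secreted glutathione peroxidase, read 184 in the library labelled EGR1-deficient and 321 in WT (−0.87). Chac1, which degrades glutathione and is induced by ATF4, read 15.8 and 23.9 (−0.66) and the transferase Gstt2 19.2 and 26.8 (−0.55), where the lowest signals well above background were 13.3 and 16.3. Ggt5 read 71.4 and 49.1 (0.47). Gss, the enzyme that completes glutathione after Gclc and Gclm, differed by −0.10 (another probe −0.22) and the peroxidases Gpx1 and Gpx4 by −0.07 and −0.06, 3 genes chosen after their values were seen.

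Among thioredoxins, peroxiredoxins and methionine sulfoxide reductases, Prdx2 stood furthest from 0. This second cytosolic peroxiredoxin, the abundant form of red cells, read 205 and 333 (−0.77) and its other probe differed by −0.66. The mitochondrial Prdx3 followed at 172 and 229 (−0.48), the sestrin Sesn3 at −0.39 and the endoplasmic reticulum enzyme Prdx4 at −0.31. Of 18 genes, 17 were above background on both arrays, 15 below 0 and 2 above, where 57.4% of all genes were below 0. Their median was −0.10, against −0.05 over all genes. Prdx2 was the 1 past 1.5-fold by its brightest probe, which is near the 7.7% of all genes past 1.5-fold. The mitochondrial reductase Txnrd2, chosen after its values were seen, differed by 0.11 in its brighter probe and by −0.64 in its other. Among erythroid markers, Alas2 was not well above background in either library, Hba-a1 read 136 and 141 (−0.12) and Klf1 21.1 and 24.3 (−0.27). Whether red cell RNA has a part in the Prdx2 difference was not tested.

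The superoxide dismutase list holds 4 genes, the 3 dismutases and the copper chaperone gene Ccs, and medians given below for the dismutases include Ccs. All 3 dismutases were below 0 and Ccs was above, where 57.4% of all genes were below 0. The extracellular dismutase Sod3 read 15.9 and 27.7 (−0.87), near background in the library labelled EGR1-deficient. The mitochondrial Sod2 differed by −0.24, the cytosolic Sod1 by −0.17 and the copper chaperone gene Ccs by 0.03 (another probe −0.09). Of the 9 genes of the phagocyte oxidase and nitric oxide synthase, 7 were below 0 and 2 above. By the brightest probe 0 were past 1.5-fold, where 7.7% of all genes were. Their median was −0.18, against −0.05 over all genes. Over genes in the members' signal range it was −0.11, a range outside which Cyba, Cybc1 and Nos2 lie. The furthest were the cytosolic oxidase subunit Ncf4 (−0.38), the chaperone Cybc1 (−0.33), the GTPase Rac1 (−0.25) and the membrane subunit Cyba (−0.20, another probe −0.06).

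**Figure D4:**
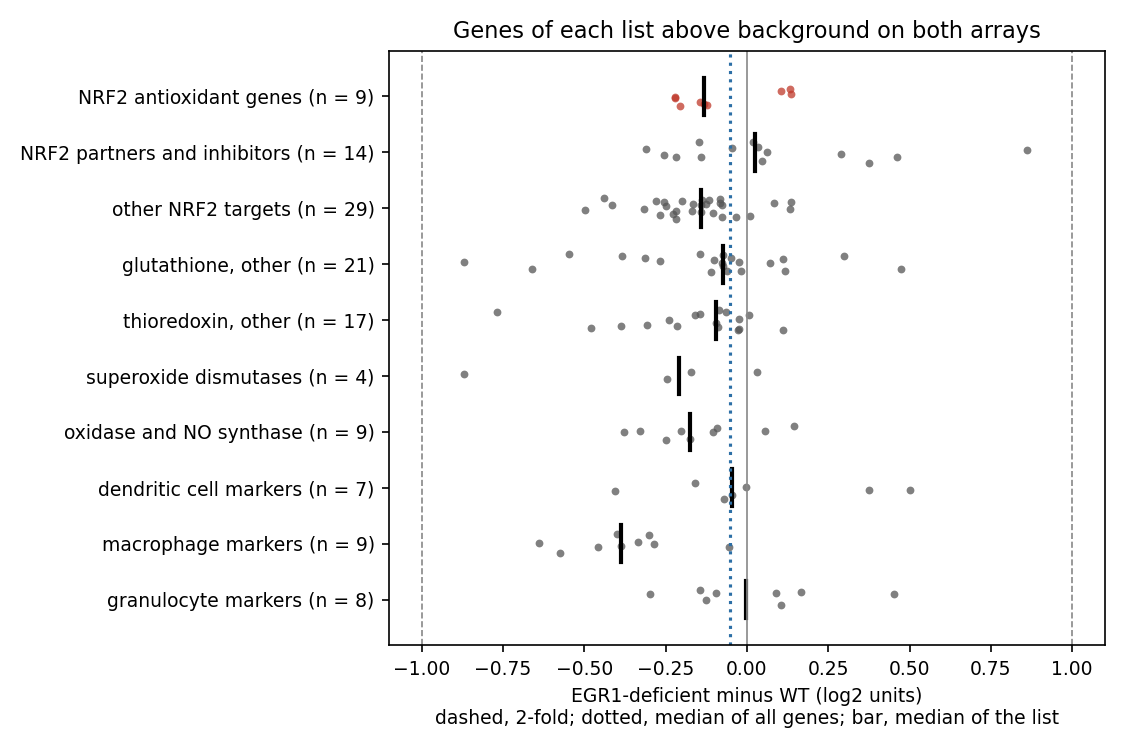
Difference between the arrays (EGR1-deficient minus WT, log2 units) for each gene above background on both arrays, by gene list, with a black bar at each list's median, a dotted line at the median of all genes (−0.05) and dashed lines at 2-fold. The NRF2 antioxidant genes (red) span −0.22 to 0.13, and the list of macrophage markers has the lowest median shown, −0.39.

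The size of the members' differences changed with the scaling, and the sign of 4 of them in at least 1 setting. Over 10 settings, the main one included, Keap1, Gclm, Gsr, Txnrd1 and Srxn1 were below 0 in 10 of 10. Some of these values were close to 0, with Gclm at −0.00049 and Srxn1 at −0.018 after quantile normalization. For Txnrd1 the count reads the brighter probe or the mean of its probes, and its other probe was at 0.04 in the main setting. The settings without a filter and with a signal of at least 100 kept the same brightest probes. They repeat the main values, so these counts hold fewer separate checks than settings. Nqo1 and Gclc were above 0 in 9 of 10 and at −0.01 and −0.0039 when each array was scaled on its median. Nfe2l2 was below 0 in 9 of 10 and at 0.05 with the mean of its probes, and Prdx1 was above 0 in 8 of 10. Scaling on the array median also moved the median of all genes to −0.19. With the authors' deposited series table, which left 12772 genes in place of 13735, it was 0.06. Nqo1 and Gclc lay above the median of all genes in every setting run, and Keap1, Gsr and Txnrd1 below it. Scalings that multiply a whole array cannot change such an order.

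**Figure D5:**
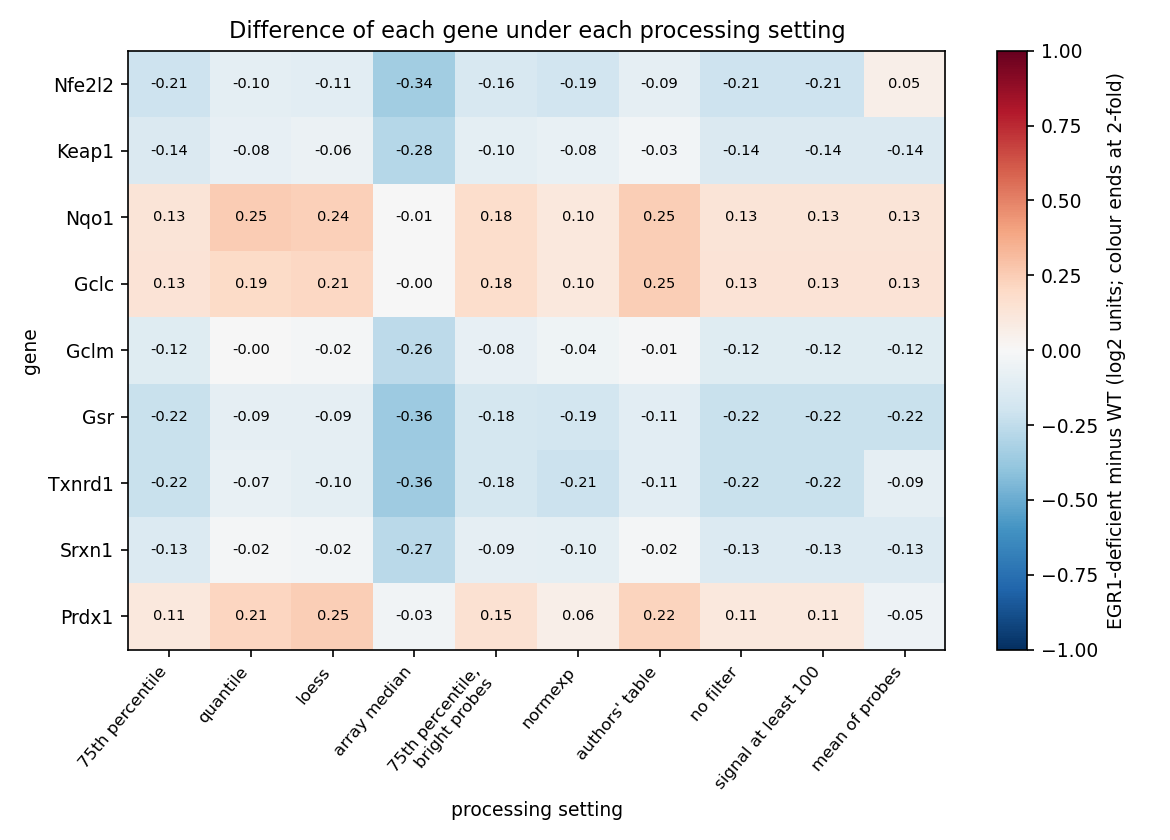
Difference of each of the 9 genes (rows, EGR1-deficient minus WT, log2 units, printed and coloured from blue to red, with the colour ends at 2-fold) under the 10 processing settings (columns). No cell reaches 2-fold, the furthest being Gsr at −0.36 when the arrays were scaled on their medians.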

How the data were processed

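The authors deposited scanner output with linear spot intensities, made with Agilent Feature Extraction 12.1.0.3 per the file headers, whereas the submitters' processing notes name 11.5.1.1. The processed intensity has background subtraction and detrending in it, per the file headers. A series table that the authors deposited beside it holds intensities equal to the processed ones times 1 constant per array (6.18 and 5.97), with column medians of 1205 and 1114, for 29296 spots including all 13 member probes. The origin of those constants is not stated in the labels or headers.

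Outlier spots (77 and 79) were left out. From each log2 intensity the log2 of the 75th percentile of that array's non-control spots (191.6 and 183.0) was subtracted to give the expression value, and spots of a probe were averaged. Accessions were matched to RefSeq names (GRCm38.p6, whose gene positions are not printed, since the array headers give mm9), which named 34565 probes and left 22038 unnamed here. A gene is its probe of highest mean signal above background on both arrays. A gene above background on 1 array only got an at-least fold against the higher of its own signal and the lowest signal well above background on the dim array. With 1 array per group, array number limits the precision and no test was made. The members and gene lists were chosen with earlier results of these data known. All members and the NRF2 regulators are named, and from other lists up to 4 genes furthest from 0. Other names are marked. Counting was tested on simulated data. Alternatives were run with Python 3.11.15 and limma 3.58.1. In normexp (offset 50) the median spot signal was used in place of the mean.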

Additional observations from a re-analysis of the deposited data

How the results depend on the processing

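No member probe was 2-fold apart in the 9 settings that keep single probes, which had all 13 probes except where a signal of at least 100 was required (12 probes). At 1.5-fold, counted in the main setting only, the count was also 0. The median over the 9 genes was below 0 in all 10 settings, which add the mean of the probes of a gene. Without a filter and with a signal of at least 100 it repeats the main value, because the brightest probes are the same. A value was counted as moved when it shifted by more than 0.09 log2 units, the error of repeated spots. Scaling on each array's median put the median of the members at −0.27, of the NRF2 partners at −0.11, of the other targets at −0.28, of the glutathione genes at −0.21, of the thioredoxin genes at −0.23, of the superoxide dismutases at −0.35 and of the oxidase genes at −0.31, with the largest member difference 0.36 in size. With the authors' deposited series table these medians were −0.019, 0.13, −0.050, 0.042, −0.0052, −0.058 and −0.061. After loess the members were at −0.025, the partners at 0.11, the other targets at −0.051, the glutathione genes at 0.019, the dismutases at −0.092 and the oxidase genes at −0.049. After quantile normalization the members were at −0.018, the dismutases at −0.071 and the oxidase genes at −0.039. The dismutases were at −0.086 after normexp, and the thioredoxin genes at −0.19 with the mean of the probes of a gene. Scaling on the array median multiplies whole arrays, and the median of all genes moved to −0.19. The authors' deposited table holds all 13 member probes, so for the members it changes the scaling alone, by 0.115 log2 units. For all genes it changes the scaling and the genes read together (12772 genes in place of 13735, median 0.06), and these were not told apart. The cause of the other shifts was not tested.

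Over all genes, 97 were 2-fold higher and 138 lower in the library labelled EGR1-deficient. The counts were 77 and 174 after quantile normalization, 73 and 184 after loess, 67 and 200 on the array median, 103 and 68 with the authors' deposited table, 18 and 32 after normexp, 1280 and 971 without the filter and 11 and 17 with a signal of at least 100. No paired analysis was possible because each group has 1 array.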
